A study of Mus musculus with 6 samples.

Results

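The genes of planar cell polarity were followed in colon tumors of WT and *Chrm3*-/- mice, with *Celsr1* at their head. The set held 10 genes, *Celsr1*, *Celsr2*, *Vangl1*, *Vangl2*, *Fzd3*, *Fzd6*, *Prickle1*, *Ptk7*, *Scrib* and *Dvl2*, and every array probe that the platform annotation assigns to one of them was taken, 19 of 45281 probes. Of the 10 genes, 9 were among the 19057 named genes on the array. *Vangl1* had no probe under its symbol and has no value here. *Celsr1* was chosen by its genotype difference in these same arrays, which passed the test, and the others because they act with it. The genotype differences of the members are therefore given as a description. Tumors came from 3 WT and 3 *Chrm3*-/- mice, the latter lacking the M3 muscarinic receptor gene, all of the strain 129S6/SvEvTac X CF1 in equal parts and labelled as 7 months old. By the study's methods, all were given AOM (azoxymethane, a carcinogen that acts on the colon) at 10 mg/kg, as 6 weekly doses that began when they were 6 weeks old, and tumors were taken 20 weeks after dosing began. Each mouse gave 1 array, and the samples were whole tumor tissue.

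Planar cell polarity is the alignment of cells within the plane of an epithelium. CELSR cadherins bridge neighboring cells, and on each side of the contact they gather either the receptors FZD3 and FZD6 with DVL proteins, or VANGL proteins with PRICKLE proteins. PTK7 and SCRIB help to place these complexes, and non-canonical Wnt ligands such as WNT5A feed into them. In the mouse the pathway is best known for closing the neural tube and for orienting hair follicles and the hair cells of the inner ear.

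Values are normalized intensities, which have no unit, and the level of one probe cannot be set against that of another. On each array 45.8% of the probes carry evenly spaced values under 2 in place of a measured signal, and a value under 2 was read as not above background. Fold changes are on the scale of log2(value + 50), which makes the changes of dim probes smaller, and a negative sign means lower in *Chrm3*-/- tumors. The 22641 probes in the brighter part of the array were tested with limma, and these held 13 of the 19 member probes and 8 of the 10 genes. *Chrm3* itself was read by 1 dim probe, at 9.06, 1.80 and 1.93 in WT replicates 1 to 3 and at 25.1, 32.1 and 21.9 in the arrays labelled *Chrm3*-/- (log2 fold change 0.49, standard error 0.10). It was thus higher in the arrays labelled as lacking the gene, but none of the sources used here places it relative to the deleted part, so that it checks neither genotype nor labels. *Chrm3*-/- replicate 1 stood apart, with a mean Pearson correlation of 0.908 with the other arrays across tested probes, against 0.940 to 0.962 for the other 5. For the members and for the median of each gene list, values without it are given as well.

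*Celsr1*, the cadherin that holds polarity complexes together across cell contacts, was far lower in *Chrm3*-/- tumors. Its single probe read 314, 258 and 206 in WT replicates 1, 2 and 3 and 19.3, 32.7 and 41.4 in *Chrm3*-/- replicates 1, 2 and 3. All *Chrm3*-/- arrays lay below all WT arrays, as they did at 5.5% of all tested probes, with a wide gap between the genotypes and every reading above 2. WT tumors averaged 259 ± 54.1 and *Chrm3*-/- tumors 31.1 ± 11.2 (SD, n = 3 each), a ratio of 8.34. On the log2(value + 50) scale the fold change was -1.93 (standard error 0.21), and on a plain log2 scale, with values under 2 set to 2, it was -3.11 (standard error 0.37). In bulk tissue, fewer cells that express the gene and less RNA per cell cannot be told apart. The paper also reports smaller tumors and fewer adenocarcinomas in *Chrm3*-/- than in WT mice. Genotype cannot be told apart from tumor size and stage here. No other *Celsr1* probe was listed, so the level could not be compared across its transcript.

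The threshold that *Celsr1* passed was passed by 28 of 22641 probes (0.124%), and by 0.0751% in the direction of *Celsr1*. Of the 13 tested member probes 1 passed, which the choice of *Celsr1* fixed, and *Celsr1* stood 24th in order of p-value and 48th in order of the lowest fold change. Among named genes just inside the threshold was *Tpmt* (log2 fold change 2.51, standard error 0.28), and just outside were *Alyref2* (-1.59, standard error 0.19) and *Taf6* (1.63, standard error 0.19). The fold change of *Celsr1* was -2.05 to -1.80 when any 1 array was left out, but its adjusted p in limma was then 0.0592 to 0.231. It no longer passed without WT replicate 1, 2 or 3 (0.175, 0.231 and 0.146), nor without *Chrm3*-/- replicate 1, 2 or 3 (0.0592, 0.0912 and 0.162). The fold change thus stayed in that range in every subset of 5 arrays, and the call held in none. These subsets reuse the arrays in which *Celsr1* was chosen, so they are no independent check of the size. Each fit also had fewer arrays, which makes a call harder to reach.

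**Figure D1:**
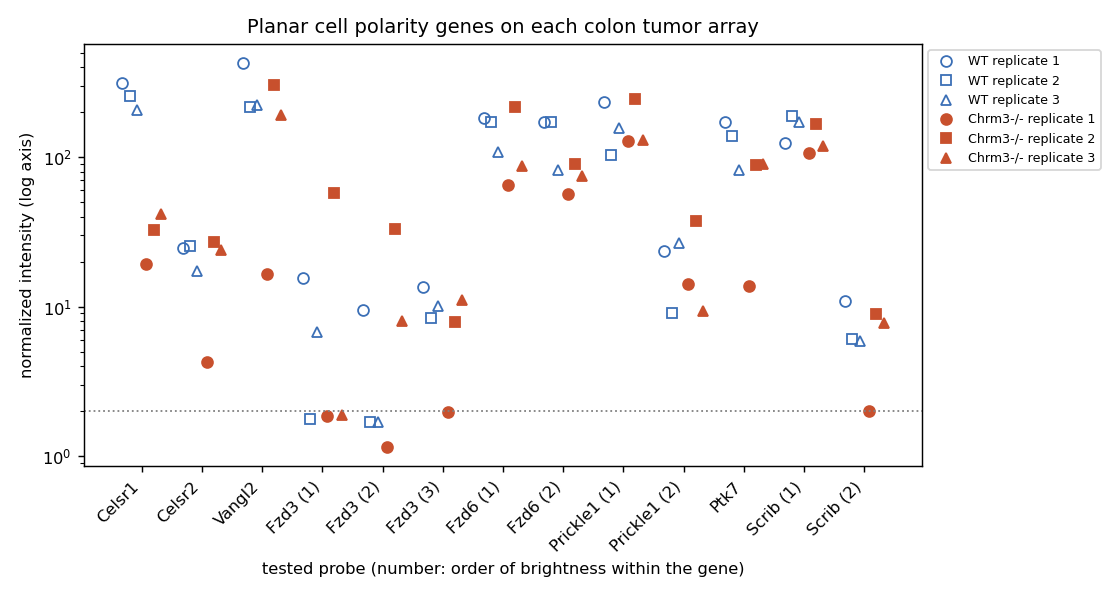
Normalized intensity (log axis) of the 13 tested probes of the polarity genes on each array, WT in open blue and *Chrm3*-/- in filled red symbols, with the replicate given by shape and the dotted line at 2, under which a value is not above background. *Celsr1* is the only one of these probes whose genotypes do not overlap, and *Chrm3*-/- replicate 1 (circles) is lowest for *Vangl2* (16.6) and *Ptk7* (13.7).

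None of the other 12 tested member probes separated the genotypes, and none passed the test. Of all tested probes 10.7% separated them and 0.124% passed. Few or none would thus be expected among 12 probes, and these counts do not set the partners apart from other probes. *Celsr2*, a second cadherin of the same family, read 24.8, 25.4 and 17.3 in WT and 4.28, 27.1 and 23.9 in *Chrm3*-/- tumors. Apart from *Chrm3*-/- replicate 1, its readings in the knockout lay within the WT range or just above it. The fold change was -0.10 (standard error 0.16) with all arrays and 0.06 (standard error 0.12) without that replicate. The probe was dim, which limits how far it can fall on this scale, and on a plain log2 scale its fold change was -0.66 (standard error 0.77). A further *Celsr2* probe was too dim to be tested.

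*Vangl2*, a membrane protein of the side opposite to FZD receptors, had the lowest fold change of the partners, and 1 array carried it. It read 425, 216 and 225 in WT replicates 1 to 3 and 16.6, 306 and 190 in *Chrm3*-/- replicates 1 to 3. Replicate 2 of the knockout thus exceeded both lower WT readings, and replicate 3 came close to them. The fold change was -0.87 (standard error 0.61) with all arrays and -0.16 (standard error 0.32) without *Chrm3*-/- replicate 1. *Ptk7*, a catalytically inactive receptor kinase of the pathway, showed a like pattern. It read 171, 138 and 81.9 in WT and 13.7, 88.8 and 90.3 in *Chrm3*-/- tumors, so that both other knockout arrays lay a little above the lowest WT array. Its fold change was -0.72 (standard error 0.37), and -0.34 (standard error 0.26) without *Chrm3*-/- replicate 1.

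*Fzd6*, a Wnt receptor of the core complex, was read by a pair of probes that differed in their knockout values. The brighter read 184, 171 and 108 in WT and 65.2, 217 and 86.7 in *Chrm3*-/- tumors, with a fold change of -0.32 (standard error 0.35). Knockout replicate 2 gave the highest reading of all arrays there. The dimmer read 171, 171 and 82.1 in WT and 56.3, 89.6 and 74.8 in *Chrm3*-/- tumors, with -0.60 (standard error 0.26), and its genotypes overlapped through WT replicate 3 alone. Without *Chrm3*-/- replicate 1 the values were -0.08 (standard error 0.34) and -0.50 (standard error 0.28). *Fzd3*, the related receptor, was dim at all 3 of its probes. Its fold changes were 0.20, 0.21 and -0.09 (standard errors 0.29, 0.18 and 0.09), and 0.37, 0.36 and -0.03 without *Chrm3*-/- replicate 1. At the first of them, *Chrm3*-/- replicate 2 read 57.4 and the other knockout arrays 1.86 and 1.87, both not above background.

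*Prickle1*, the cytoplasmic partner of VANGL proteins, was nearly level between the genotypes. Its brighter probe read 234, 104 and 156 in WT and 128, 243 and 130 in *Chrm3*-/- tumors, with a fold change of 0.02 (standard error 0.31), and its dimmer probe had 0.00 (standard error 0.18). Without *Chrm3*-/- replicate 1 these were 0.14 and 0.06. The means of the brighter probe, 165 ± 65.5 and 167 ± 65.7 (SD, n = 3 each), differed by far less than the spread between mice. *Scrib*, a scaffold of the lateral membrane, read 124, 188 and 171 in WT and 107, 166 and 119 in *Chrm3*-/- tumors at its brightest probe. Its fold change was -0.23 (standard error 0.22), and -0.04 (standard error 0.09) at a dimmer one, or -0.13 and 0.02 without *Chrm3*-/- replicate 1. *Dvl2*, which carries the signal from FZD receptors into the cell, had a single probe, under 2 on every array except *Chrm3*-/- replicate 3 (3.98), so no level can be given. The 6 member probes too dim to be tested never exceeded 5.36, and 28 of their 36 values lay under 2.

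*Celsr1* was lower on every knockout array. Its distance from the WT mean was -2.14, -1.89 and -1.74 on the log2(value + 50) scale in *Chrm3*-/- replicates 1, 2 and 3. The readings there, 19.3, 32.7 and 41.4, all lay under the offset of 50, which draws these distances together. The nearest to *Celsr1* among the partners on this scale was the dimmer *Fzd6* probe, at -0.81, -0.41 and -0.58. *Vangl2* (-2.29) and *Ptk7* (-1.47) were far from the WT mean in replicate 1, and at 0.13 and -0.44, and -0.35 and -0.33, in replicates 2 and 3. The fold changes of the 12 other tested probes ranged from -0.87 to 0.21 with a median of -0.10, against a median of 0.01 over all tested probes. Without *Chrm3*-/- replicate 1 their range was -0.50 to 0.37 and their median -0.01, with 6 lower and 6 higher. The probes of *Celsr2* and *Fzd3* and the dimmer ones of *Prickle1* and *Scrib* were dim and cannot fall far on this scale. Their distances, and the range and median they enter, thus cannot be set against *Celsr1*. No test was made of the contrast between *Celsr1* and the others, since *Celsr1* was picked for its change.

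**Figure D2:**
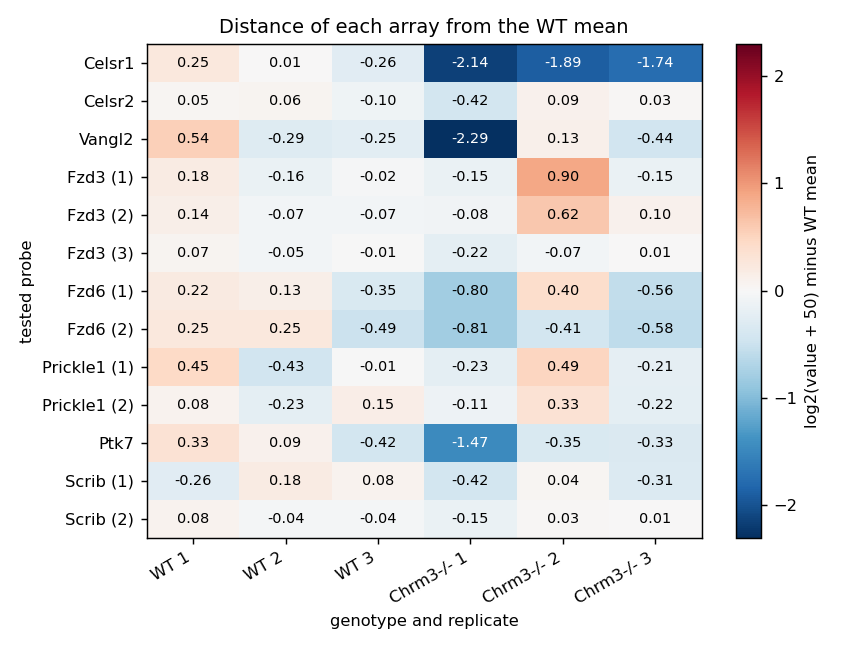
Distance of each array from the WT mean, as log2(value + 50), for the 13 tested member probes (rows) on the 6 arrays (columns), in blue where lower and in red where higher. *Celsr1* is at -2.14, -1.89 and -1.74 in the *Chrm3*-/- arrays, while *Vangl2* (-2.29) and *Ptk7* (-1.47) are strongly lower in *Chrm3*-/- replicate 1 alone.

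*Chrm3*-/- replicate 1 gave the lowest of the 6 readings at 10 of the 13 tested member probes, *Celsr1* among them, whereas it did so at 29.9% of all tested probes. These 10 probes share that array and, in part, a gene, and are not independent. Across the 6 arrays *Vangl2* went with *Ptk7* (Pearson's r = 0.92) and with *Celsr2* (r = 0.91), and *Celsr2* with *Ptk7* (r = 0.89). *Celsr1* went with the dimmer *Fzd6* probe (r = 0.83) and *Ptk7* (r = 0.75) more than with the brighter *Fzd6* probe (r = 0.45). With *Celsr2* (r = 0.41) and the brighter *Prickle1* probe (r = 0.04) the values were lower still. These correlations rest on 6 arrays, 1 of which stands apart, and describe only the readings.

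**Figure D3:**
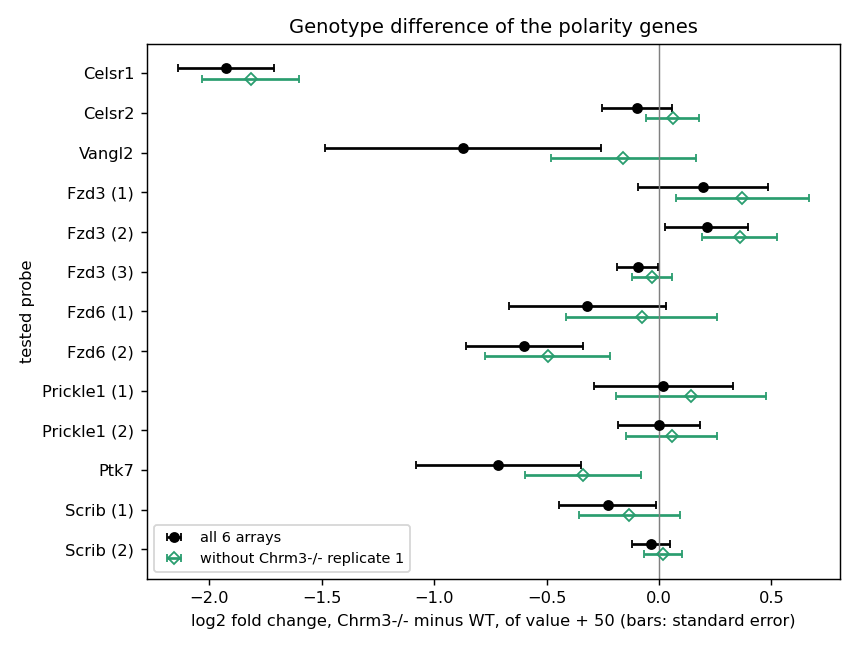
Log2 fold change of value + 50, *Chrm3*-/- minus WT, for the 13 tested member probes with standard errors, from all 6 arrays (filled circles) and without *Chrm3*-/- replicate 1 (open diamonds). *Celsr1* stays at -1.82 without that array, while *Vangl2* moves from -0.87 to -0.16 and *Ptk7* from -0.72 to -0.34.

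The tumors held epithelium on every array. *Cdh1*, the cadherin of epithelial junctions, averaged 2634 ± 366 over the WT mice and 2918 ± 52.6 over the *Chrm3*-/- mice (SD, n = 3 each), and *Krt8*, a keratin of simple epithelia, 16185 ± 2462 and 17020 ± 2564. The probe of *Epcam*, an epithelial surface protein, was dim and read 8.67 to 12.1 in WT and 1.06 to 2.03 in *Chrm3*-/- tumors, at or near background there (log2 fold change -0.24, adjusted p = 0.793 from limma). Its part in the difference of *Celsr1* was not tested. Of 11 epithelial markers all were tested and none passed, 4 were lower in *Chrm3*-/- tumors, and their summed level was 39215 to 54017 in WT and 38330 to 60663 in *Chrm3*-/- tumors. This sum is carried by a few bright probes such as *Krt8* and *Lgals4*. The median fold change of the 11 markers was 0.07, and -0.17 without *Chrm3*-/- replicate 1, and the part of epithelial content in the difference of *Celsr1* was not tested.

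The fibroblast markers, by contrast, separated the genotypes in sum. Their summed level over 7 measured of 8 genes was 13219 to 16535 in WT and 9875 to 10870 in *Chrm3*-/- tumors, 6 of 7 were lower with a median of -0.46 (-0.45 without *Chrm3*-/- replicate 1) and none passed alone, and none was under 2 on all arrays. This sum is carried mainly by *Dcn*, which averaged 10199 in WT and 7469 in *Chrm3*-/- tumors. *Dcn*, *Col1a1*, *Col1a2*, *Col3a1* and *Pdgfra* each separated the genotypes, while *Lum* and *Fbln1* overlapped. At 5.5% of all tested probes all *Chrm3*-/- arrays lay below all WT arrays, as they did for these markers. Markers of the same cell type are not independent of each other. The part of fibroblasts in the difference of *Celsr1* was not tested. *Chrm3*-/- replicate 1, which was lowest for most polarity genes, held the highest summed levels of smooth muscle markers (36937, against 7709 to 14747 on the other arrays; 8 of 8 measured, with *Synpo2* under 2 on all arrays) and of leukocyte markers (21459, against 3162 to 6888; 6 of 7 measured). Neuronal and glial markers summed to 175 there, against 30.6 to 73.2 elsewhere (7 of 9 measured), but this sum came from *Uchl1* (74.2), *Prph* (66.2) and *Sox10* (28.7). The neuronal markers *Elavl4*, *Tubb3* and *Snap25* and the glial marker *S100b* were under 2 on that array. *Des* and *Myh11* of smooth muscle and *Ptprc* and *Cd3e* of leukocytes were above 2 there. Without that array the median fold change was 0.18 rather than 0.94 for smooth muscle markers and -0.55 rather than 0.17 for leukocyte markers. *Chrm3*-/- replicate 1 also held the highest summed levels of epithelial (60663), endothelial (942) and plasma cell markers (7064). The highest epithelial sum on the other arrays was 56285. The part of any of these cells in the low readings of that array was not tested. Endothelial markers (6 of 6 measured) summed to 674 to 902 in WT and 639 to 942 in *Chrm3*-/- tumors, and plasma cell markers (4 of 4) to 5016 to 5375 and 3058 to 7064.

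Beyond the members, 54 further genes of the pathway were tested, and none passed in limma, where 0.115% of all named genes passed by their brightest probe. At an unadjusted p under 0.05 there were 3 (5.56%), against 5.0% of all named genes. Of the 54 genes, 22 were lower and 32 higher in *Chrm3*-/- tumors, with a median fold change of 0.02.

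*Wnt5a*, the main non-canonical Wnt ligand of the gut stroma, had the lowest value among them. Its brighter probe read 347, 387 and 351 in WT and 69.5, 267 and 154 in *Chrm3*-/- tumors, without overlap, and its dimmer tested probe 121, 110 and 174 against 19.1, 81.5 and 53.3, again without overlap. The fold changes were -1.06 (standard error 0.35, adjusted p = 0.912 from limma) and -0.90 (standard error 0.28, adjusted p = 0.854). Without *Chrm3*-/- replicate 1 they were -0.69 (standard error 0.23) and -0.65 (standard error 0.23). Fibroblast markers were lower in the same arrays, and their part in this was not tested. With arrays weighted by quality in limma the brighter probe passed (-1.01, standard error 0.17, adjusted p = 0.0475). The estimate of the weights did not converge, however. *Chrm3*-/- replicate 3 weighed 6.12 against 0.256 and 0.386 for replicates 1 and 2, so the knockout side rested mainly on that array. *Wnt9b*, another ligand, read 86.4, 1.22 and 23.2 in WT at its brighter probe, and every *Chrm3*-/- array was under 2, as was WT replicate 2. The 9 tested ligands, co-receptors and secreted inhibitors outside the members had a median of -0.14, with 6 lower, and -0.06 without *Chrm3*-/- replicate 1.

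Among further core proteins, *Celsr3*, the third cadherin of the family, read 7.16, 1.86 and 10.9 in WT and 9.50, 14.1 and 20.8 in *Chrm3*-/- tumors (0.19, standard error 0.11, adjusted p = 0.991 from limma). The probes of *Celsr2* and *Celsr3* were both dim, so that their fold changes on this scale cannot be set against that of *Celsr1*. *Fzd7*, a receptor of intestinal stem cells in the mouse, had 0.34 (standard error 0.23). The 6 core genes outside the members had a median of 0.10 (0.08 without *Chrm3*-/- replicate 1), and 5 were higher in *Chrm3*-/- tumors. In the parallel system of the giant cadherins FAT and DCHS, 3 genes were tested, with a median of 0.10 with or without that array. *Fat1* had -0.46 (standard error 0.26) and -0.48 (standard error 0.34) at its brighter probes, which became -0.26 and -0.17 without *Chrm3*-/- replicate 1. *Dchs1* was near background.

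Apicobasal polarity genes, which work with SCRIB to tell the top of a cell from its base, were higher in *Chrm3*-/- tumors for 10 of 14, with a median of 0.09 (0.17 without *Chrm3*-/- replicate 1) and none past the threshold. *Prkcz*, an atypical protein kinase C of the apical complex, read 106, 156 and 234 in WT and 303, 284 and 226 in *Chrm3*-/- tumors. The genotypes overlapped by a single WT array. Its 3 tested probes had fold changes of 0.61, 0.50 and 0.59 (standard errors 0.26, 0.32 and 0.20), and 0.54, 0.22 and 0.52 without *Chrm3*-/- replicate 1. *Llgl2*, a basolateral partner of SCRIB, read 1503, 1955 and 1564 in WT and 1832, 2379 and 3023 in *Chrm3*-/- tumors (0.49, standard error 0.22, adjusted p = 0.991 from limma). Of the effectors and trafficking factors, 22 were tested with a median of 0.00 (-0.03 without *Chrm3*-/- replicate 1). The genotypes did not overlap at 6 of these 22, in both directions, against 10.7% of all tested probes. *Rhou*, a small GTPase induced by Wnt signals, read 312, 470 and 314 in WT and 272, 198 and 164 in *Chrm3*-/- tumors, without overlap (-0.67, standard error 0.24, adjusted p = 0.952 from limma). *Gipc1*, an adaptor that binds VANGL2, had 0.48 (standard error 0.19) at its brightest probe and -0.43, -0.12 and -0.07 at its other 3. Without *Chrm3*-/- replicate 1 these were 0.43, -0.27, 0.11 and 0.12, so that the sign at the last pair turned on that array.

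**Figure D4:**
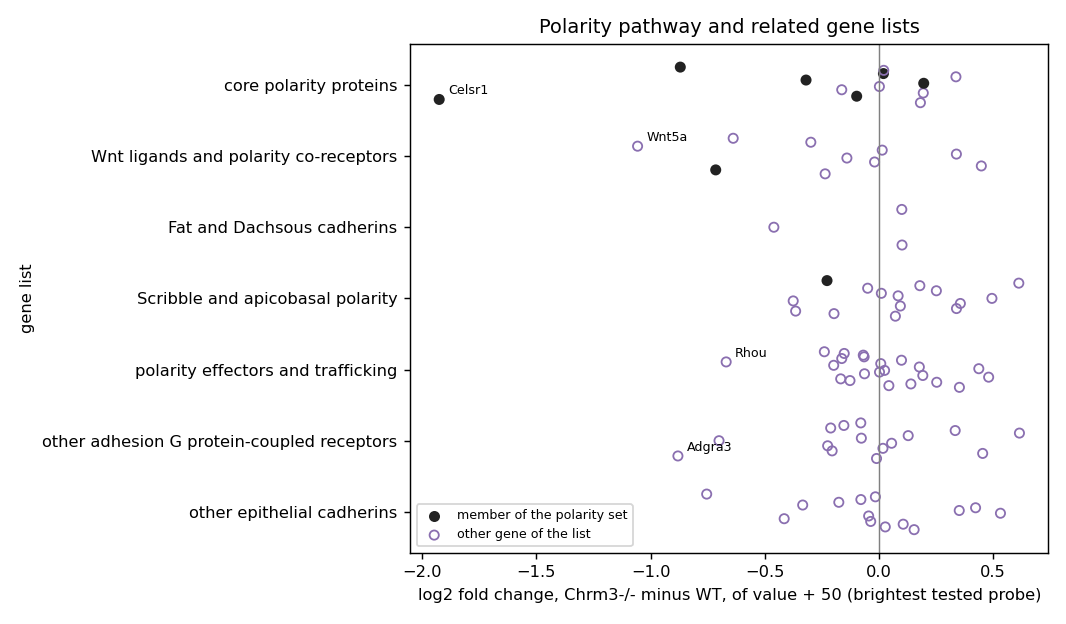
Log2 fold change of value + 50, *Chrm3*-/- minus WT, of each tested gene at its brightest probe, by list, with members of the polarity set filled and other genes open. *Celsr1* (-1.93) has the lowest value of the genes shown and *Wnt5a* (-1.06) the next, on a scale where dim probes cannot fall far.

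CELSR proteins are both cadherins and adhesion G protein-coupled receptors, and both families were read for comparison. Of 15 other adhesion receptors tested, 9 were lower with a median of -0.08 (-0.12 without *Chrm3*-/- replicate 1), and of 14 other cadherins and cadherin-like genes 8 were lower with a median of -0.03 (-0.20 without it). None of them passed in limma, where 3 of the 29 genes, all of them lower, had an unadjusted p under 0.05 (10.3%, against the 5.0% above). *Adgra3*, an adhesion receptor, was the closest. It read 1006, 1107 and 1174 in WT and 586, 511 and 622 in *Chrm3*-/- tumors, with a wide gap between the genotypes, and had -0.88 (standard error 0.16, adjusted p = 0.202 from limma). The value was -0.90 without *Chrm3*-/- replicate 1. *Cdh3*, a cadherin of stratified and tumor epithelia, and *Clstn1*, a cadherin-like protein of vesicles, had fold changes of -0.42 and -0.33 from dim probes, with standard errors of 0.17 and 0.14 and adjusted p = 0.991 each from limma. *Adgrf1* had -0.22 (standard error 0.13).

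*Celsr1* lies on chromosome 15 with *Fzd6*, *Scrib* and *Prickle1*, in the gene table of GRCm38.p6. The 10 nearest tested genes on each side, chosen after the values were seen, had fold changes of -0.68 to 0.73 with a median of 0.02. Of these 20 neighbors, 9 were lower, none passed in limma and 1 had an unadjusted p under 0.05. *Trmu* and *Tbc1d22a*, which flank *Celsr1* among the tested genes, had -0.10 (standard error 0.16) and 0.31 (standard error 0.14). The lowest was *Tafa5* (-0.68, standard error 0.30, adjusted p = 0.991) and the highest *Ttc38* (0.73, standard error 0.19, adjusted p = 0.615), on opposite sides. Several neighbors were dim, which limits how far they can fall on this scale, and *Tafa5* averaged 49.0 in WT and 8.84 in *Chrm3*-/- tumors.

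**Figure D5:**
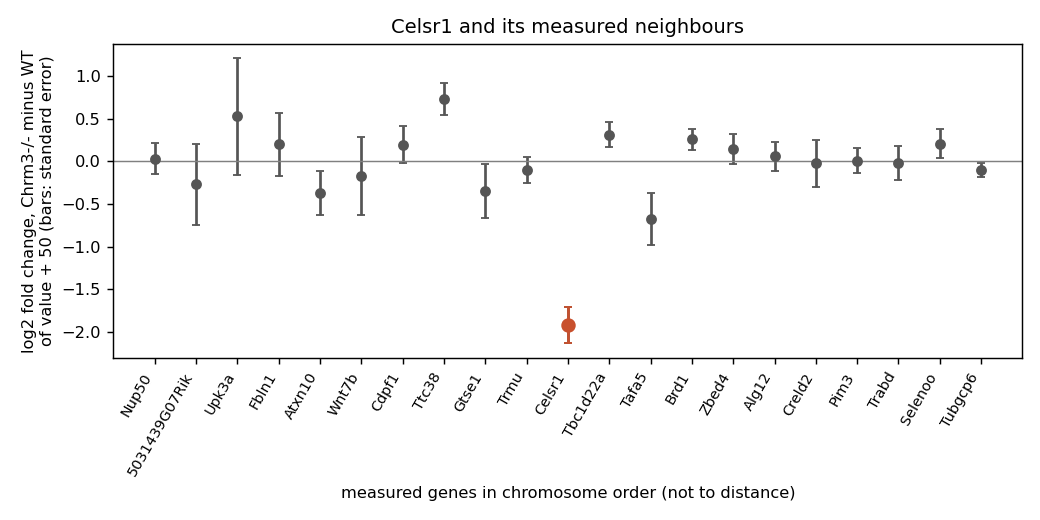
Log2 fold change of value + 50, *Chrm3*-/- minus WT, with standard errors, of *Celsr1* (red) and of the 10 nearest tested genes on each side, in chromosome order and not to distance. The neighbors lie between -0.68 and 0.73, and *Celsr1* at -1.93.

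The named genes whose readings across the 6 arrays were most like those of *Celsr1* were *Col22a1*, *Bod1*, *Actb*, *Arsi* and *Arap3*, with Pearson's r of 0.99 each on the log2 scale. Such values come with the choice of the highest among 22641 probes, of which 101 exceeded 0.95. In *Chrm3*-/- replicates 1 to 3, *Arsi* read 1.62, 1.84 and 1.97 and *Col22a1* 1.10, 1.91 and 2.34. These readings are under 2 or just above it, so the order of the knockout arrays cannot be read from either probe. *Actb*, the cytoplasmic actin often used as a reference gene, read 10074, 9563 and 6788 in WT and 2731, 3311 and 3378 in *Chrm3*-/- tumors at the probe concerned (-1.46, standard error 0.19). The other 4 *Actb* probes had fold changes of -0.24, -0.30, 1.22 and 1.24, so its probes went in both directions. *Bod1*, which acts in chromosome alignment at mitosis, had -0.98 (standard error 0.16) at the probe concerned and -0.04 (standard error 0.20) at its brighter one. Probes of 1 gene thus differed for *Actb* and *Bod1*, a comparison that *Celsr1*, with its single probe, does not allow.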

How the data were processed

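Total RNA from 1 colon tumor sample of each of 6 mice was hybridized to the Illumina MouseWG-6 v2.2 BeadChip, 1 array per mouse. The authors applied cubic spline normalization and subtracted no background, and the deposited intensity values are on a linear scale, with an identical set of values on each array. In the deposited table from before normalization, 6 columns could be tied to no sample by name and were left out, so another background correction or normalization could not be run. The files name no slide.

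Intensities were analyzed as log2(value + 50). Of 45281 probes, the 22641 whose mean on this scale reached the overall median were fitted in limma 3.58.1 (R 4.3.3) by lmFit and eBayes with a trend and genotype as the only term. P-values are two-sided, with Benjamini-Hochberg adjustment over all 22641 probes, with a threshold of 0.05. The fit was tested on simulated data. Tables and plots were made in Python 3.11.15 with pandas 2.3.3, numpy 2.4.6 and matplotlib 3.10.9. Symbols came from the platform annotation, updated by gene ID through the gene table of GRCm38.p6, and 34885 probes had 1 symbol, 18 had several and 10378 had none there. In lists, a gene was read by its brightest tested probe, the one with the highest mean log2 value. Named genes were all member probes, up to 2 genes with the smallest unadjusted p in each list, and the 5 genes closest to *Celsr1* across arrays. The neighbors of *Celsr1*, its place in the order of all probes, the other probes of genes so named and single markers were added after their values were seen. The members and lists were chosen with earlier results of these data known. Nothing says whether the tumors of a genotype shared a litter or a day, so p-values measure the spread between these mice only, and the number of arrays limits the precision. Other offsets and filters, a replicate block, a fit without a trend, arrayWeights, averaged probes and leaving out each array in turn were the alternatives.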

Additional observations from a re-analysis of the deposited data

How the results depend on the processing

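*Celsr1* kept its direction under all 15 alternatives and its call under 6. All of them reuse the arrays in which *Celsr1* was chosen for its difference. The log2 fold change was -3.11 on a plain log2 scale and -2.56 with an offset of 16. With an offset of 100 it was -1.45 and did not pass (adjusted p = 0.0546 from limma), nor did it with no filter on dim probes (-1.93, adjusted p = 0.119), where more probes are tested. The count of member probes past the threshold, 1 in the analysis above, was 0 under both. Leaving out each array in turn gave -2.05 to -1.80 for *Celsr1* and a count of 0 to 0. The titles give both genotypes the replicate numbers 1 to 3, but nothing ties same-numbered mice together, and the correlations of their deviations from the group means were -0.15, -0.03 and 0.02. With this number as a block, the fold change of *Celsr1* was -1.93 and its adjusted p = 0.435, with a count of 0. The count of pathway genes past the threshold was 0 except with arrayWeights, where it was 1, *Wnt5a*. The estimate of those weights did not converge, and *Chrm3*-/- replicate 3 had a weight of 6.12 against 0.256 for replicate 1. The fold changes of the other 7 members at their brightest probe moved by less than 1 SD between replicates in 100 of 102 comparisons. The exceptions, *Ptk7* (-1.38) and *Celsr2* (-0.66), were on the plain log2 scale. The cause was not tested. For 3 arrays against 3, the smallest p of an exact permutation test is 0.1. Normexp background correction, quantile normalization and a slide block were not run.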
